A study of Mus musculus with 10 samples.

Results

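Med23 knockout (KO) mouse embryonic fibroblasts were set against wild-type (WT) fibroblasts, on 3 arrays of each genotype out of 10 arrays in all. The fibroblasts (MEFs) came from embryos at 9.5 days and had immortalised on their own in culture. KO MEFs were measured at 3 serum times, 0 (no serum), 30 and 90 min, and WT MEFs at the same times, so the arrays formed 3 pairs by serum time. The other 4 arrays held 10T1/2 cells, a mouse embryonic line with fibroblast features. These arrays were knockdown of Med23, knockdown together with MAL overexpression, MAL overexpression alone, and a control. The members were chosen by the sample labels alone. The ranking of single genes below leaves out 201 measured genes of muscle and serum lists, while other counts keep them unless stated. Only 1 line of each genotype is named in the labels, and each condition had 1 array. The p-values therefore cover the residual spread over 6 arrays and say nothing of the spread between lines, and differences between 2 immortalised lines that do not come from Med23 cannot be told apart from those that do. An exact two-sided test on the signs of 3 pairs cannot go below p = 0.25.

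Mediator is a complex of many subunits that bridges transcription factors bound to DNA and RNA polymerase II at the promoter. Med23 sits in its tail and is known as a contact for the ETS factor Elk1, through which growth signals reach immediate-early genes, and for viral and other activators. Fibroblasts lay down the collagens and proteoglycans of connective tissue, and embryonic fibroblasts keep a memory of body position in their patterning genes.

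Values are log2 expression per probe set, where 1 unit is a 2-fold step, and each gene is given by 1 probe set. The medians of the MEF arrays lay between 3.86 and 3.93. No call of detection was used, so a level below the array median is read as low, and a fold that rests on such a level is a lower bound, "at least", computed from the array median in its place. The fibroblast markers averaged 9.25 to 9.6 on the KO arrays and 9.92 to 10.23 on the WT arrays, and 3 of the 14 measured (Fap, Lum and Thy1) lay below the median on all 6. Dcn (-9.14) differed most, and without it the averages were 9.6 to 9.99 on KO arrays and 9.63 to 9.97 on WT arrays. These near-equal averages hide changes both ways. Of the 14 genes, 10 had a lower mean in KO MEFs and 4 a higher one. At 0 min S100a4 read 12.08 in KO and 13.89 in WT MEFs, and Pdgfrb 9.96 and 11.32. Col1a2 went the other way, at 13.39 in KO and 9.55 in WT MEFs. Of the markers of other cell types, 7 of 10 endothelial genes (Pecam1 and Cdh5 among them), 6 of 10 macrophage genes (Ptprc and Adgre1 among them), 10 of 11 epithelial genes (Cdh1 among them), 6 of 7 mesothelial genes, 5 of 9 skeletal muscle genes (Myod1 and Myog among them) and 4 of 11 trophoblast and endoderm genes lay below the median on all 6 arrays. In the neural and neural crest list only 2 of 8 genes (Pax6 and Tubb3) did so. Map2, Ncam1, Nes and Sox10 lay above the median on all 6 arrays. The macrophage list averaged 3.62 to 3.76 on KO arrays and 4.03 to 4.2 on WT arrays. The neural and neural crest list averaged 5.02 to 5.14 on KO arrays and 5.58 to 5.82 on WT arrays. Without Sox2 the neural list averaged 5.31 to 5.5 on KO arrays and 5.28 to 5.36 on WT arrays, and without Cd14 the macrophage list 3.34 to 3.49 on KO arrays and 3.58 to 3.64 on WT arrays. The mesothelial list averaged 3.08 to 3.19 on KO arrays and 3.55 to 3.73 on WT arrays. Without Msln (-3.68) it averaged 3.08 to 3.18 on KO arrays and 3.09 to 3.18 on WT arrays. The endothelial list averaged 3.61 to 3.78 on KO arrays and 3.37 to 3.45 on WT arrays. Without Emcn (2.28) it averaged 3.46 to 3.61 on KO arrays and 3.45 to 3.49 on WT arrays. The part of other cell types in the differences was not tested. In bulk RNA, fewer cells of a type and less RNA per cell cannot be told apart.

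Med23 itself checked the labels. At 0, 30 and 90 min it read 3.3, 3.3 and 2.91 in KO MEFs, against 7.14, 7.39 and 6.9 in WT MEFs. All KO values lay below the array median and the groups did not overlap. The genotype coefficient, the KO minus WT difference over the 3 pairs, was -3.97 with an SE of 0.13 (at least 9.54-fold lower, n = 3 pairs, limma adjusted p = 9.27e-06).

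The serum series was set up around genes that depend on the factor SRF, and the comparison of KO with WT MEFs is read here for the genes outside that question. Over all genes, limma called 5018 of 11933 tested (42.1%) at an adjusted p under 0.05, with 2535 higher (21.2%) and 2483 lower (20.8%) in KO MEFs. A difference of at least 2-fold was reached by 1948 of them (16.3%), 992 higher (8.31%) and 956 lower (8.01%). A difference of at least 8-fold was reached by 144 higher and 114 lower genes. Values of KO and WT arrays did not overlap for 4914 genes (41.2%). All 3 pairs shared 1 sign in 5013 of the called genes, while 65.8% of all tested genes had 1 sign. Outside the muscle and serum lists, 4785 called genes had 1 sign in all 3 pairs, 2433 higher and 2352 lower, of which 946 and 883 reached 2-fold. The difference had a median range over the 3 times of 0.44 in called genes, where its median size was 0.84, against a range of 0.43 in all tested genes, and 540 called genes had a range above 1. The median coefficient of all tested genes was -0.02.

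The 20 genes with the largest positive coefficients outside the muscle and serum lists included genes of secreted proteins, cell-surface proteins and transcription factors. Peg3, an imprinted zinc finger gene, read 12.54, 12.38 and 12.1 in KO MEFs at the 3 times, against 3.39, 3.32 and 3.3 in WT MEFs. Ptn, the heparin-binding growth factor pleiotrophin, read 11.89, 11.48 and 11.51 in KO MEFs, against 3.0, 2.98 and 3.44 in WT MEFs. Both genes lay below the median on every WT array and above it on every KO array, with no overlap. Their coefficients were 9.0 for Peg3 (SE 0.13, at least 345-fold higher) and 8.49 for Ptn (SE 0.18, at least 210-fold higher), each with limma adjusted p = 3.19e-06. Sgce, the imprinted gene of epsilon-sarcoglycan, read 9.92, 9.94 and 9.85 in KO MEFs, against 3.72, 3.89 and 3.92 in WT MEFs (coefficient 6.06, at least 63.6-fold higher).

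Dkk3, a secreted glycoprotein of the Dickkopf family, read 9.67, 9.49 and 9.48 in KO MEFs, against 3.66, 3.37 and 3.21 in WT MEFs (6.13, at least 49.8-fold higher). Gpc4, a heparan sulfate proteoglycan anchored in the membrane that helps to present Wnt and FGF ligands, read 10.32, 10.25 and 10.02 in KO MEFs, against 3.61, 3.49 and 4.03 in WT MEFs (6.49, at least 76.1-fold higher). Apod, a secreted lipid carrier of the lipocalin family, read 10.77, 10.62 and 10.49 in KO MEFs, against 3.91, 3.58 and 4.34 in WT MEFs (6.68, at least 95.4-fold higher). In each of these genes the groups were apart by more than 5 log2 units at every time. The other genes of secreted proteins were the Wnt modulator Sfrp2 (at least 173-fold higher), Cthrc1 (at least 176-fold), Abi3bp (at least 74.5-fold), Tgfbi (at least 64.3-fold) and the basement membrane protein Nid1 (at least 93.3-fold). Genes of membrane proteins were Mme, the membrane protease neprilysin (at least 70.5-fold higher), the immunoglobulin-type protein Igdcc4 (at least 64.0-fold), the cell adhesion molecule Alcam (coefficient 6.09), and Rnf128, a ubiquitin ligase of endosomes (at least 58.5-fold).

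Inside the cell, 2 transcription regulators and 3 further genes were in the same group. Zic1, a zinc finger transcription factor of the dorsal neural tube, somites and limb mesenchyme, read 10.97, 10.43 and 9.11 in KO MEFs, against 3.15, 2.85 and 2.72 in WT MEFs. Its KO value at 90 min was the lowest of the 3, and still above every WT value. The coefficient was 7.26 (SE 0.28, at least 76.6-fold higher, limma adjusted p = 1.7e-05). Cited1, a transcriptional coregulator that binds CBP and p300, read 10.44, 10.27 and 10.59 in KO MEFs, against 3.93, 3.44 and 3.6 in WT MEFs (6.78, at least 92-fold higher). Ctsz, a lysosomal cysteine protease, read 9.4, 9.32 and 9.2 in KO MEFs, against 3.02, 2.85 and 3.33 in WT MEFs (6.24, at least 42.1-fold higher). Neither gene had a KO value within 5 log2 units of a WT value. The vesicle fusion protein Vamp8 was at least 45.4-fold higher. Trim30a, an interferon-inducible member of the TRIM family, read 10.48, 10.37 and 9.81 in KO MEFs, against 3.91, 3.3 and 3.1 in WT MEFs (6.78, at least 79.3-fold higher). It lies among near-identical relatives, so its probes may also read them.

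**Figure D1:**
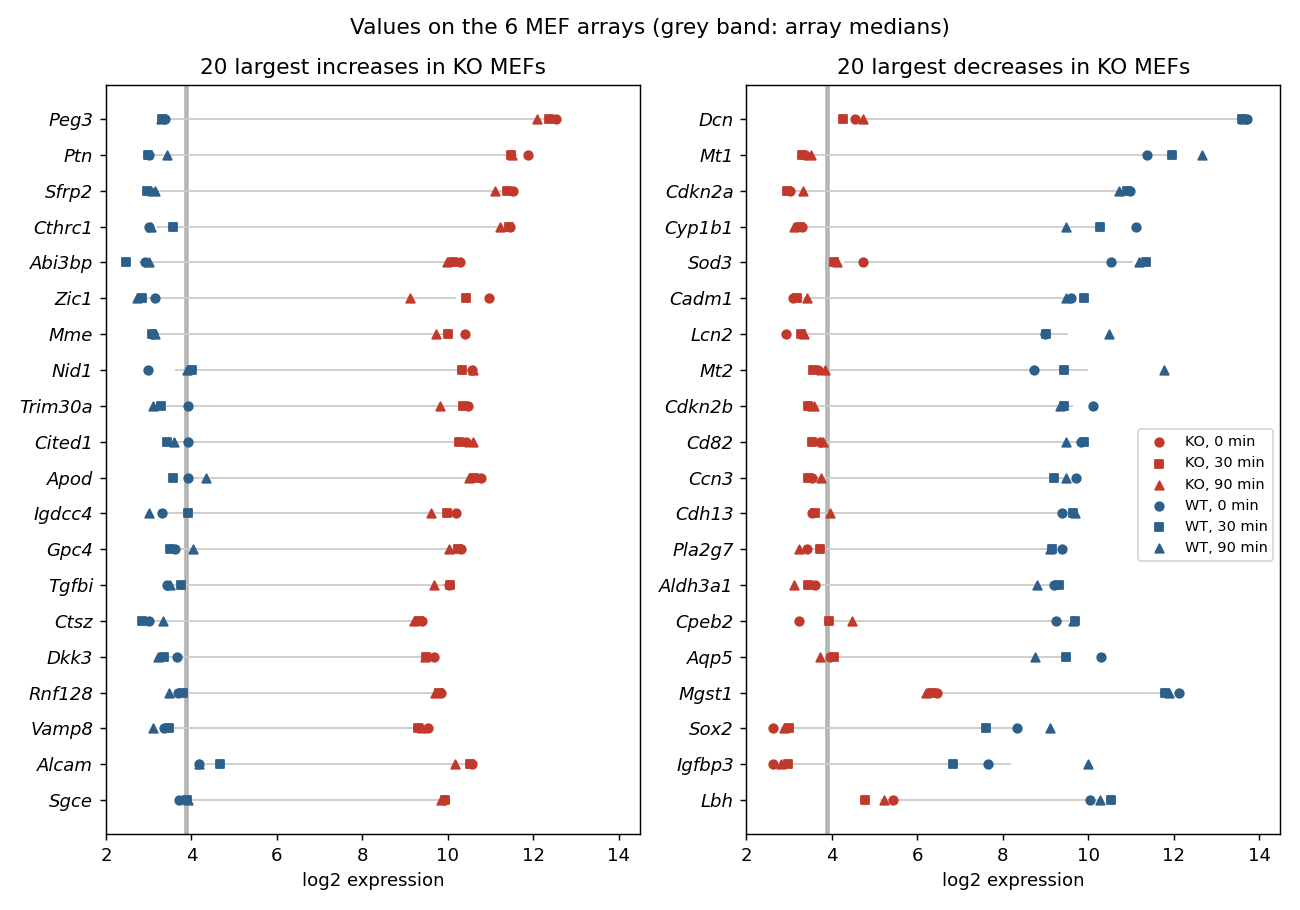
The 6 values of the 20 genes with the largest positive coefficients (left) and the 20 with the largest negative coefficients (right), KO minus WT, outside the muscle and serum lists, in log2 expression. Red points are KO arrays and blue points WT arrays, shapes mark the serum time, thin grey lines join the 2 group means, and the grey band spans the array medians. KO and WT values are apart in all 40 genes, and the low group of 26 genes lies wholly below the array median.

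The 20 genes with the largest negative coefficients included metal and xenobiotic defence genes, cell-cycle inhibitors and adhesion molecules. Mt1 and Mt2 encode metallothioneins, small proteins that bind zinc, copper and cadmium. Mt1 read 3.38, 3.29 and 3.5 in KO MEFs at the 3 times, against 11.37, 11.96 and 12.67 in WT MEFs (coefficient -8.61, SE 0.23, at least 276-fold lower, limma adjusted p = 5.25e-06). Mt2 read 3.68, 3.55 and 3.83 in KO MEFs, against 8.73, 9.43 and 11.77 in WT MEFs (-6.29, SE 0.5, at least 68-fold lower, limma adjusted p = 0.000284). Both lay below the median on all KO arrays, and in WT MEFs both were highest at 90 min of serum.

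Enzymes that handle oxidants and foreign compounds were in the same group. Cyp1b1, a cytochrome P450 that oxidises aromatic hydrocarbons and oestrogens, read 3.29, 3.26 and 3.12 in KO MEFs, against 11.12, 10.28 and 9.49 in WT MEFs (-7.07, at least 84.8-fold lower). Aldh3a1, an aldehyde dehydrogenase best known from the cornea, read 3.61, 3.43 and 3.12 in KO MEFs, against 9.2, 9.31 and 8.79 in WT MEFs (-5.71, at least 37-fold lower). Mgst1, a membrane-bound glutathione transferase, read 6.45, 6.35 and 6.21 in KO MEFs, against 12.13, 11.8 and 11.89 in WT MEFs (-5.6, 48.6-fold lower). Mgst1 stayed above the array median on the KO arrays, unlike the other 2. The extracellular superoxide dismutase Sod3 fell by 6.71 on the log2 scale.

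The cell-cycle inhibitors Cdkn2a, whose locus encodes p16 and p19ARF, and Cdkn2b, which encodes p15, are the genes that cultured fibroblasts switch on as they age and often lose when they immortalise. Cdkn2a read 3.01, 2.95 and 3.33 in KO MEFs, against 10.97, 10.9 and 10.72 in WT MEFs (-7.77, at least 126-fold lower). Cdkn2b read 3.46, 3.44 and 3.59 in KO MEFs, against 10.1, 9.44 and 9.34 in WT MEFs (-6.13, at least 53.3-fold lower). Neither gene had a KO value above the array median. Among adhesion genes, the immunoglobulin-type molecule Cadm1 was at least 54.3-fold lower in KO MEFs, the tetraspanin Cd82 at least 57.4-fold and the lipid-anchored cadherin Cdh13 at least 50.7-fold. The secreted proteins Dcn (decorin, coefficient -9.14), Lcn2 (an iron-siderophore carrier, at least 48.7-fold), Ccn3 (at least 47.7-fold), Pla2g7 (an enzyme that degrades platelet-activating factor, at least 39.9-fold) and Igfbp3 (an IGF carrier, at least 19.3-fold) were lower as well.

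Transcription factor and other genes closed the group. Sox2, a factor of pluripotent and neural stem cells, read 2.61, 2.99 and 2.87 in KO MEFs, against 8.33, 7.61 and 9.11 in WT MEFs (-5.53, SE 0.3, at least 22-fold lower, limma adjusted p = 5.85e-05). Igfbp3 read 2.63, 2.98 and 2.81 in KO MEFs, against 7.65, 6.83 and 10.0 in WT MEFs, the widest WT range of the ranked genes. The water channel Aqp5 (at least 46.7-fold lower), the RNA-binding protein Cpeb2 (at least 43.1-fold lower) and the transcription cofactor Lbh (coefficient -5.14) were the others. In 26 of the 40 ranked genes, no array of the lower genotype reached its own median. For 25 of the 40, other probe sets of the same gene could be read. All 39 of those had the same sign, and 37 differed by at least 2-fold, while over all tested genes 82.1% of 10155 other probe sets had the sign of the chosen one. None of the 40 lost its call under any alternative processing tried.

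A stricter pattern was on in 1 genotype and low in the other: a gene had to stay under the median of every array of 1 genotype and to exceed it by at least 4 log2 units on each array of the other. Of such genes 30 were on in KO MEFs and 13 in WT MEFs. They were chosen by these values and are given without a test. The nearest genes outside the limit had a lowest margin of 3.91 in KO MEFs and 3.88 in WT MEFs, and the nearest inside had 4.11 and 4.8. All 30 of the KO group and 11 of the WT group lay outside the muscle and serum lists, where Cxcl5 and Cxcl15 were the exceptions. The control 10T1/2 cells, a line of other origin, expressed some and not others. Of the 30 genes on in KO MEFs, 11 stood at least 4 log2 units above the array median in 10T1/2 cells, 15 stood below it and 4 lay between. Peg3 (3.27), Zic1 (2.78), Cthrc1 (3.03) and Trim30a (3.44) were low in 10T1/2 cells, whereas Ptn (12.18), Ctsz (12.06) and Vamp8 (10.51) were high there. Of the 13 genes on in WT MEFs, 7 were high in 10T1/2 cells, 4 low and 2 between. Mt1 (12.49), Mt2 (12.13), Ccn3 (11.39) and Cd82 (10.03) were high there, and Cdkn2a (3.0), Cadm1 (2.52) and Pla2g7 (2.37) were low. The 10T1/2 array median was 3.66. Whether MEF and 10T1/2 arrays share a normalization is not stated in the sources used here, so levels are set across the cell types only roughly.

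**Figure D2:**
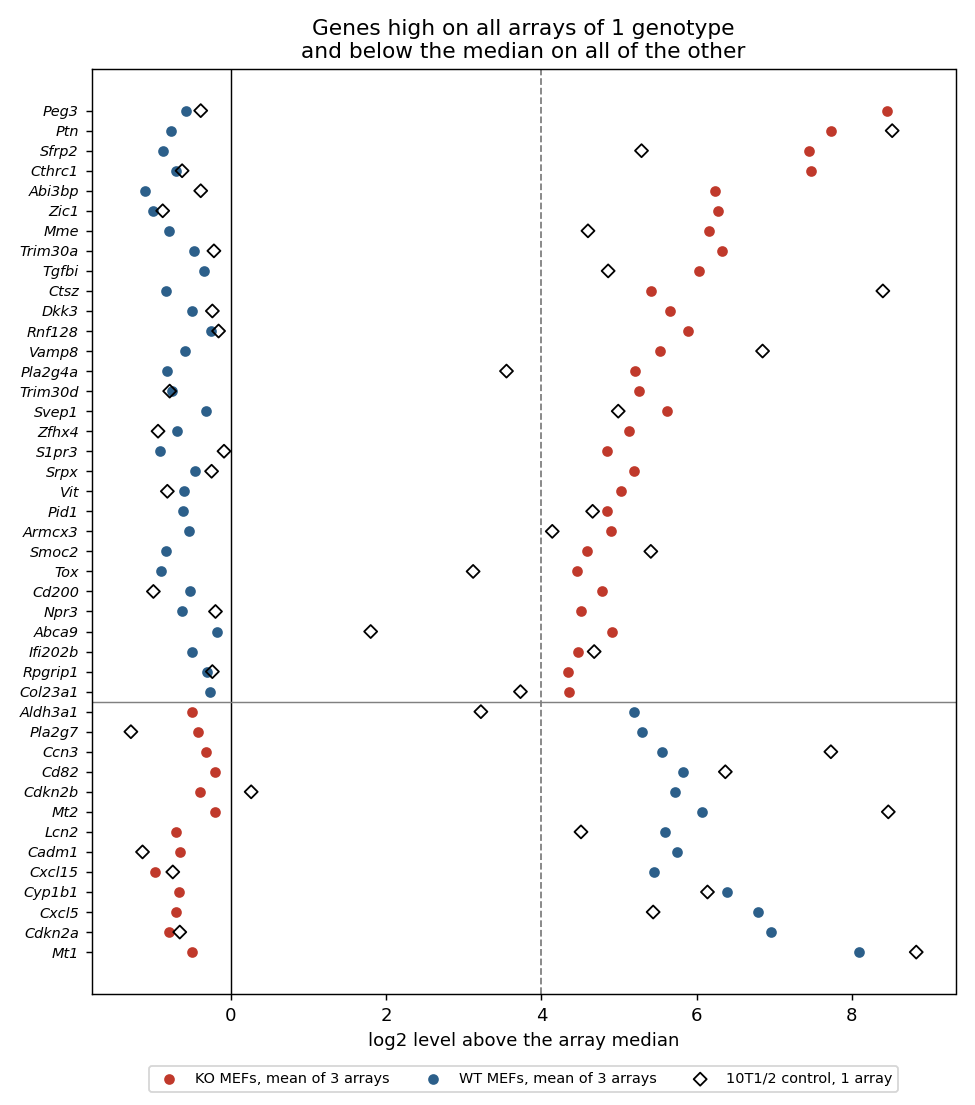
Log2 level above the array median of the 30 genes on in KO MEFs only (above the line) and the 13 on in WT MEFs only (below it). Red and blue points are the means of the 3 KO and the 3 WT arrays. Open diamonds are the 10T1/2 control array, and the dashed line is the limit of 4. The diamonds of 15 genes in the upper part and 4 in the lower part lie left of 0.

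The promoters of 4 switched genes are printed here because these genes were low in 1 genotype and high in the other and differ in CpG content, the feature on which promoter methylation acts. Each is the 250 bases before an annotated transcription start, 5′ to 3′ on the gene's strand, from RefSeq on GRCm38.p6, with CpG dinucleotides in capitals. All of these genes lie on the minus strand. The Ptn window is chr6:36810180-36810429, the Zic1 window chr9:91365769-91366018, the windows of 2 listed Cdkn2a starts chr4:89294620-89294869 and chr4:89282193-89282442, and the Cdkn2b window chr4:89311033-89311282.
Ptn: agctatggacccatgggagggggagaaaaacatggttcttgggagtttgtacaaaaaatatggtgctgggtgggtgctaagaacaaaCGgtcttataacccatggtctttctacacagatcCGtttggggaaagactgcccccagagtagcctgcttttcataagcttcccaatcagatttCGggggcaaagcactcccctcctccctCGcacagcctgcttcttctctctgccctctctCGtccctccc
Zic1: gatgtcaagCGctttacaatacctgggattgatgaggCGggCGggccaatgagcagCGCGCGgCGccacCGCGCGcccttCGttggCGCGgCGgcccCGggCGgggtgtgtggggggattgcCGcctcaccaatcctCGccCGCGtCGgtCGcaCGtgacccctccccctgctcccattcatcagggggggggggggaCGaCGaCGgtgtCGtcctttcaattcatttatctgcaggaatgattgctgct
Cdkn2a, start 1: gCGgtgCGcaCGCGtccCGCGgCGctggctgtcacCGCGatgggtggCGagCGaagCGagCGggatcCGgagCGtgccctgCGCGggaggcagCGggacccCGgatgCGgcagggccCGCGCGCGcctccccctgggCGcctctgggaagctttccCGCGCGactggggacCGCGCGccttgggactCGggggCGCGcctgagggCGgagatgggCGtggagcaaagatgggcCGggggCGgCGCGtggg
Cdkn2a, start 2: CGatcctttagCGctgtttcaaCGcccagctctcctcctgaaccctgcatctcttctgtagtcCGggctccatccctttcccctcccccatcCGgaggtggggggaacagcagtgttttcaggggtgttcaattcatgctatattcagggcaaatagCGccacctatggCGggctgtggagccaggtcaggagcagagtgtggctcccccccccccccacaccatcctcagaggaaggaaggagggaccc
Cdkn2b: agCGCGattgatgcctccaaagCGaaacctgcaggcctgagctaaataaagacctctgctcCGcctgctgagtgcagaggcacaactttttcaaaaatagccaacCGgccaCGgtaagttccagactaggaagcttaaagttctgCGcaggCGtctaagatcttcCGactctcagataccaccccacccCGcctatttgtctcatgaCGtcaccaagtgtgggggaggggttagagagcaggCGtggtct
The Ptn window holds 5 CpG, the Zic1 window 27, the Cdkn2a windows 40 and 7, and the Cdkn2b window 12. Over 7679 tested genes with 1 listed start, the median was 16 and the middle range 10 to 23. Ptn and Zic1, both on in KO MEFs only, thus lie on opposite sides of that range, and so do the 2 starts of Cdkn2a. The arrays do not measure methylation.

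Across the promoters of genes with 1 listed start, in a window that also holds the bases just after the start, the median was 21 CpG for the 1664 called higher and 22 for the 1523 called lower, against 21 for all 7679 tested genes. It was 13 for 93 of the 144 genes at least 8-fold higher in KO MEFs and 19 for 62 of the 114 at least 8-fold lower. A TATA box (TATAAA, either strand) stood in 16.1% of either set, against 7.31% of all tested genes. The ETS core CCGGAAG stood in 2.15% of the 8-fold higher and 3.23% of the 8-fold lower set, against 18.9% of all tested genes. The GC box GGGCGG stood in 54.8% and 59.7%, against 66.0%, and CCAAT in 36.6% and 37.1%, against 39.3%. The AP-1 motif TGANTCA stood in 1.08% of the 8-fold higher and 12.9% of the 8-fold lower promoters, against 4.62%, and the CArG box, the site of SRF, in 4.3% and 3.23%, against 1.38%. Over all called genes the shares were near the background, with an ETS core in 17.4% of those higher and 19.6% of those lower. Motifs were searched on both strands and are descriptions of letters. The sets were chosen by expression, and no test was made. With 93 and 62 promoters in the 8-fold sets, their small shares rest on few genes. Muscle and serum genes were not left out of these sets. The ETS core and the GC box each contain a CpG, and both 8-fold sets had fewer CpG than all tested genes. Whether their lower shares follow from that was not tested.

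Patterning transcription factors outside the Hox clusters stood more often higher than lower. Of 43 tested homeobox genes 17 were higher and 6 lower, with a median coefficient of 0.34. Zfhx4, a zinc finger homeobox gene, read 9.19, 9.35 and 8.53 in KO MEFs, against 3.18, 3.44 and 3.03 in WT MEFs (5.81, at least 34.6-fold higher). Alx1, a factor of craniofacial mesenchyme, read 8.64, 8.46 and 7.03 in KO MEFs, against 4.07, 3.54 and 3.64 in WT MEFs (4.29, SE 0.29, at least 17.0-fold higher). In both genes the KO value was lowest at 90 min. Irx2 fell by 2.34 on the log2 scale, and Lhx9, below the median on all KO arrays, was at least 2.44-fold lower. Of 48 Zic, Gata, T-box, Forkhead and Sox genes 17 were higher and 12 lower (median 0.25). Beside Zic1 and Sox2, Tfap2b, a factor of neural crest and kidney, was at least 23.9-fold higher, and Scx, the scleraxis gene of tendon, read 3.06, 3.66 and 2.93 in KO MEFs, against 7.61, 7.76 and 7.62 in WT MEFs (-4.45, SE 0.16, at least 13.7-fold lower). Hedgehog pathway genes held 6 higher and 2 lower of 16 (median 0.14). Gli2, a transcription factor of that pathway, read 8.72, 9.09 and 8.34 in KO MEFs, against 4.35, 4.2 and 3.94 in WT MEFs (4.55, SE 0.15, 23.5-fold higher). Boc, a coreceptor for Hedgehog ligands, rose by 3.06. Scube3 (-0.99) and Gas1 (-0.58) were the 2 called lower. Scube3 lost its call under 6 alternatives (limma adjusted p of 0.0514 to 0.188), and its coefficient was -0.55 without the 90 min arrays. Gas1 lost it without the 0 min and without the 30 min arrays (limma adjusted p = 0.0624 and 0.112). Of 15 retinoic acid pathway genes 4 were higher and 7 lower (median -0.2). Among them Tgm2, the tissue transglutaminase, fell by 4.47 (22.2-fold) and Rdh10, which makes retinal from retinol, by 2.98 on the log2 scale. Pluripotency and germline genes had 1 of 10 higher (Tdrd7, 1.48) and 1 lower (Sall1, at least 1.37-fold). Sall1 lost its call without the 0 min arrays, without the 30 min arrays and with low values raised to the median (limma adjusted p = 0.116, 0.13 and 0.0941), which left 0 lower.

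Of 20 tested MHC class I and antigen processing genes 14 were higher (70.0%) and 1 lower (5.0%) in KO MEFs, with a median of 0.79. The shares over all tested genes were 21.2% higher and 20.8% lower. H2-D1, a classical class I heavy chain, read 10.14, 9.9 and 9.93 in KO MEFs at the 3 times, against 6.52, 6.4 and 5.75 in WT MEFs (3.77, SE 0.17, 13.6-fold higher, limma adjusted p = 2.83e-05). H2-K1 read 9.42, 9.14 and 9.37 in KO MEFs, against 5.61, 6.0 and 5.99 in WT MEFs (3.44, SE 0.16, 10.9-fold higher). Class I genes are near-identical to each other and differ between mouse strains, so the probes may read several of them, and no source used here names the strain of either line. The peptide transporter subunits Tap2 and Tap1 rose by 2.94 and 2.0, and the immunoproteasome subunit Psmb9 by 2.55. These 3 lie close together on chromosome 17, in a row of 5 called genes from H2-DMa to Tap2. B2m, the light chain that all class I molecules share, read 12.72, 12.67 and 12.7 in KO MEFs, against 12.47, 12.5 and 12.87 in WT MEFs, so the groups overlapped (0.08, limma adjusted p = 0.667). It was picked after its values were seen. Cd1d1, which presents lipids, was the 1 gene called lower (-0.84). Without the 0, 30 or 90 min arrays, 9, 10 and 13 of the list were higher. Complement and coagulation genes held 7 higher and 5 lower of 16 (median 0.21), with Tfpi, the inhibitor of tissue factor, 3.81 higher and the complement protease C1s1 1.23 lower. TNF family and death receptor genes held 5 higher and 14 lower of 32. The receptor Tnfrsf1b was at least 17.9-fold lower in KO MEFs (-4.34), and the lymphotoxin receptor Ltbr at least 16.7-fold lower (-4.28). Cytokine and Toll-like receptor genes held 9 higher and 18 lower of 43 (median -0.29). Among them were Lifr (3.45) and the interleukin-1 antagonist Il1rn (at least 10.1-fold lower). The 2 other probe sets of Lifr had the same sign but differed by less than 2-fold.

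Detoxification and lysosome genes were more often lower than higher in KO MEFs. Lower calls made up 51.9% of the detoxification list and 53.3% of the lysosome list, against 20.8% of all tested genes. Higher calls made up 21.2% and 11.1%, against 21.2% of all tested genes. Of 52 tested glutathione and xenobiotic detoxification genes 27 were lower and 11 higher, with a median of -0.49, and without the 0, 30 or 90 min arrays 19, 18 and 27 were lower. Beside Cyp1b1, Sod3, Aldh3a1 and Mgst1, the list held genes that moved the other way. Gstt1, a glutathione transferase, read 8.3, 8.25 and 8.26 in KO MEFs, against 5.31, 5.17 and 4.59 in WT MEFs (3.25, 9.49-fold higher). The carbonyl reductase Cbr3 was at least 5.41-fold higher. Of 45 lysosome and cathepsin genes 24 were lower and 5 higher (median -0.48), and 16, 14 and 23 were lower without the 0, 30 or 90 min arrays. Ctsc, the protease that activates granule enzymes of immune cells, read 2.84, 3.07 and 2.97 in KO MEFs, against 7.77, 7.19 and 6.72 in WT MEFs (-4.27, SE 0.23, at least 10.1-fold lower). The 1 other probe set of Ctsc that could be read had the same sign but differed by less than 2-fold. Lipa, the lysosomal acid lipase, fell by 2.77 on the log2 scale. Ctsz had the highest coefficient of its list, followed by the sulfatase Ids (0.86). Proteasome subunit genes had 14 of 37 lower and 1 higher (Psmc3, 0.52), with Psmd13 (-1.03) and Psmb3 (-0.98) lowest. Without the 0 min or the 30 min arrays only 4 were lower, and Psmc3 lost its call (limma adjusted p = 0.141 and 0.0747). The median was -0.31 with all arrays and -0.3 and -0.35 in those 2 runs.

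Metabolic genes were mixed. The glycolysis list, which also holds the pyruvate dehydrogenase genes Pdha1 and Pdk4, had 4 of 26 higher and 11 lower (median -0.36). Pdk4, the kinase that shuts off pyruvate dehydrogenase, read 2.89, 2.89 and 3.22 in KO MEFs, against 6.9, 6.61 and 6.66 in WT MEFs (-3.72, at least 7.13-fold lower), while Aldoc, an aldolase of brain, was at least 4.05-fold higher. Respiratory chain subunit genes had 11 of 73 higher and 10 lower, and their median of -0.02 became 0.02 without the 30 min arrays, where 1 was called in all. Without the 0 min arrays 0 were higher and 1 lower, and without the 90 min arrays 5 were higher and 12 lower. The most changed was Ndufa2 (-1.0), a subunit of complex I. Transporters of amino acids, glucose and monocarboxylates had 7 of 37 higher and 11 lower (median -0.18). Slc38a4, a sodium-coupled amino acid transporter, read 8.43, 8.53 and 8.61 in KO MEFs, against 3.43, 4.2 and 3.12 in WT MEFs (4.94, at least 22.7-fold higher). Its relative Slc38a1 read 4.16, 4.05 and 4.25 in KO MEFs, against 7.1, 7.33 and 7.34 in WT MEFs (-3.1, 8.59-fold lower). The 2 genes thus had opposite signs in every pair. Ion channel genes had 6 of 37 higher and 12 lower (median -0.19), where the water channels Aqp1 (coefficient 2.84) and Aqp5 went opposite ways. DNA methylation and chromatin enzyme genes had 13 of 59 higher and 13 lower (median 0). Tet1, which oxidises methylcytosine, read 7.14, 6.99 and 5.48 in KO MEFs, against 4.61, 3.97 and 3.97 in WT MEFs (2.35, SE 0.28, 5.11-fold higher).

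Surface and adhesion genes changed in both directions, with members of the same family often on opposite sides. All tested genes did so too (21.2% higher and 20.8% lower), so change in both directions does not set these lists apart. The shares of the guidance list and of the keratin and other intermediate filament list lay near those of all tested genes. Cadherin and protocadherin genes had 10 of 27 higher and 5 lower (median 0.15), with Fat4 (coefficient 2.72) and Pcdhb9 (at least 4.85-fold higher) the highest and Cdh13 and Cdh22 (at least 13.5-fold lower) the lowest. Immunoglobulin-type adhesion genes had 11 of 26 higher and 7 lower, and their median of 0.02 became -0.02 with the mean of all probe sets. Alcam and Cadm1 marked the ends. Claudin, connexin and desmosome genes had 3 of 19 higher and 9 lower (median -0.24). Cldn2, a claudin of leaky epithelia, read 8.13, 7.95 and 7.34 in KO MEFs, against 3.58, 3.66 and 3.46 in WT MEFs (4.24, at least 14.9-fold higher), while the desmosome plaque gene Pkp1 was at least 5.24-fold lower. Keratin and other intermediate filament genes had 2 of 10 higher and 2 lower, and 0 of either without the 30 min arrays, where Synm, Lmnb1, Nes and Krt10 all lost the call (limma adjusted p = 0.11, 0.0513, 0.0654 and 0.153). Guidance genes had 11 of 49 higher and 12 lower, and their median of -0.01 turned to 0.01 under quantile normalization. In that list Slit3 rose by 2.22 and Slit2 fell by 2.48, though both encode ligands of Robo receptors. Sema5a read 2.86, 2.7 and 2.86 in KO MEFs, against 7.72, 7.33 and 7.72 in WT MEFs (-4.78, at least 13-fold lower). Tetraspanin, S100 and annexin genes had 7 of 34 higher and 17 lower (median -0.35), and 8, 7 and 17 were lower without the 0, 30 or 90 min arrays.

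Heparan and chondroitin sulfate genes had 19 of 42 higher (45.2%) and 10 lower (23.8%), with a median of 0.22. All tested genes had 21.2% higher and 20.8% lower. Beside Gpc4, Ptprz1, the receptor phosphatase that binds pleiotrophin through its chondroitin sulfate, read 7.68, 7.71 and 7.55 in KO MEFs, against 3.91, 3.17 and 3.41 in WT MEFs (4.15, SE 0.17, at least 13.3-fold higher, limma adjusted p = 2.31e-05). Ligand and receptor, Ptn and Ptprz1, were thus both high in KO MEFs and low in WT MEFs. ADAM and ADAMTS genes had 10 of 24 higher and 4 lower (median 0.14), with Adamtsl1 (coefficient 3.7) and Adamts12 (at least 7.53-fold higher) highest. G protein-coupled receptor genes had 16 of 44 higher and 15 lower, with a median of -0.04 that became 0.06 with the mean of all probe sets. S1pr3, a receptor for sphingosine 1-phosphate, read 8.74, 8.65 and 8.81 in KO MEFs, against 3.02, 2.85 and 3.13 in WT MEFs (5.73, at least 28.3-fold higher). It is listed with the natriuretic peptide clearance receptor Npr3 (at least 22.5-fold higher), which is not coupled to G proteins in the usual way. Ptger4, a prostaglandin E2 receptor, read 4.1, 6.07 and 8.84 in KO MEFs, against 8.0, 10.55 and 10.36 in WT MEFs. It rose with serum in both genotypes and stood lower in KO MEFs at each time (-3.3, SE 0.53, limma adjusted p = 0.00414, with 0.0502 without the 30 min arrays and 0.0981 without serum time in the fit).

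Counts in every list ran against a high background, since 42.1% of all tested genes were called. Without the 0, 30 or 90 min arrays the shares of all genes called higher were 11.2%, 10.5% and 19.9%, and lower 10.3%, 8.8% and 21.1%. Without the 0 or the 30 min arrays most list counts were smaller, while without the 90 min arrays some were larger. Among homeobox genes 11, 11 and 20 were then higher, and among heparan and chondroitin sulfate genes 10, 11 and 18. Lower calls without the 0 or the 30 min arrays were 11 and 8 for cytokine and Toll-like receptor genes, 8 and 5 for G protein-coupled receptor genes, 5 and 5 for claudin, connexin and desmosome genes, 7 and 7 for glycolysis genes, 4 and 4 for chromatin enzyme genes, 2 and 2 for retinoic acid pathway genes, 7 and 7 for guidance genes, 2 and 1 for complement and coagulation genes, 6 and 5 for heparan and chondroitin sulfate genes, 10 and 9 for TNF family genes and 1 and 0 for Hedgehog pathway genes. Higher calls in the same 2 runs were 11 and 11 for Zic, Gata, T-box, Forkhead and Sox genes, 8 and 8 for chromatin enzyme genes, 1 and 1 for retinoic acid pathway genes, 2 and 2 for lysosome genes, 5 and 2 for TNF family genes, 5 and 6 for cytokine and Toll-like receptor genes, 5 and 3 for ion channel genes, 2 and 3 for glycolysis genes, and 4 and 5 for tetraspanin, S100 and annexin genes. Without the 90 min arrays, 1 Hedgehog pathway gene was lower, and 2 genes each were lower in the MHC list, higher in the pluripotency list and higher in the proteasome list.

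**Figure D3:**
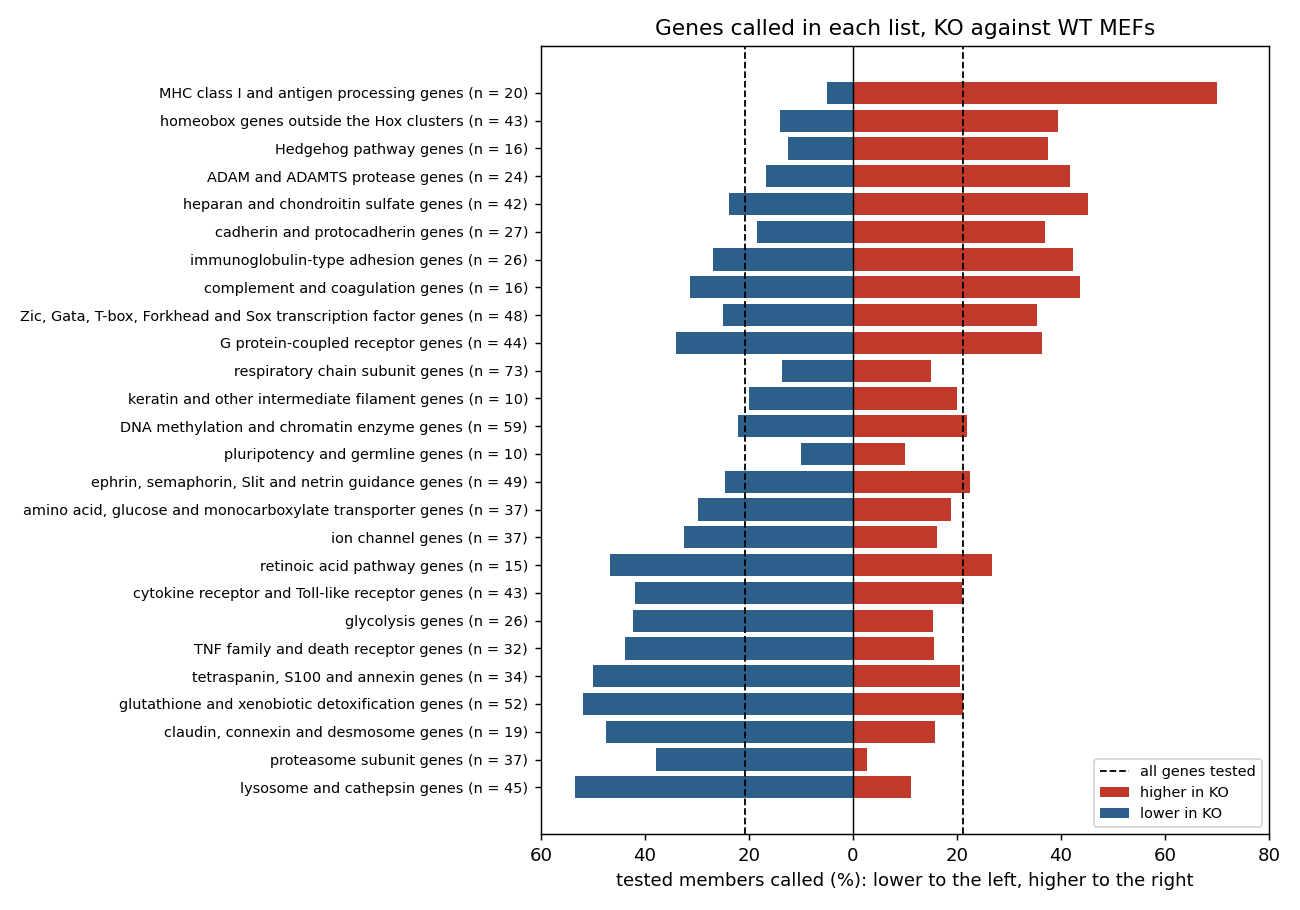
Percent of tested members called higher (red, to the right) and lower (blue, to the left) in KO MEFs for 26 gene lists. Lists are sorted by percent higher minus percent lower. Dashed lines mark the 21.2% higher and 20.8% lower of all genes tested, and n is the number of members tested. The MHC class I list reaches farthest right and the lysosome list farthest left.

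Called genes were unevenly spread over the chromosomes. On chromosome 5, 301 of 782 tested genes were lower (38.5%) and 66 higher (8.44%), with a median coefficient of -0.29 and medians of -0.29, -0.3 and -0.26 at 0, 30 and 90 min. In 30 of its 31 blocks of 25 neighbouring genes more genes were lower than higher. On chromosome 14 the lean was the other way, with 145 of 385 higher (37.7%) and 43 lower (11.2%), a median of 0.25, and 14 of 15 blocks with more genes higher. Chromosome 9 had 220 of 665 higher (33.1%), 68 lower and a median of 0.2, with more genes higher in 24 of 26 blocks and more lower in 0. Chromosomes 15 and 3 leaned lower, with medians of -0.2 and -0.15, while chromosome 11 had 19.5% higher and 20.6% lower and a median of -0.04. The shifts were small per gene: 15.9% of the genes of chromosome 5 reached 2-fold, against 16.3% of all tested genes. Without the 0 or the 30 min arrays, 136 and 125 genes of chromosome 5 were lower and 32 and 29 higher, 73 and 77 genes of chromosome 14 were higher and 24 and 21 lower, and 116 and 110 genes of chromosome 9 were higher and 37 and 28 lower. In 10T1/2 cells the chromosome 5 median was -0.03 for knockdown minus control and -0.11 for both treatments minus MAL, within the range over chromosomes of -0.15 to 0.19 and -0.26 to 0.18. A difference in chromosome copies between the 2 lines was not tested. On the Y chromosome 3 of 4 tested genes were higher in KO MEFs, and Xist was below the median on all 6 MEF arrays.

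**Figure D4:**
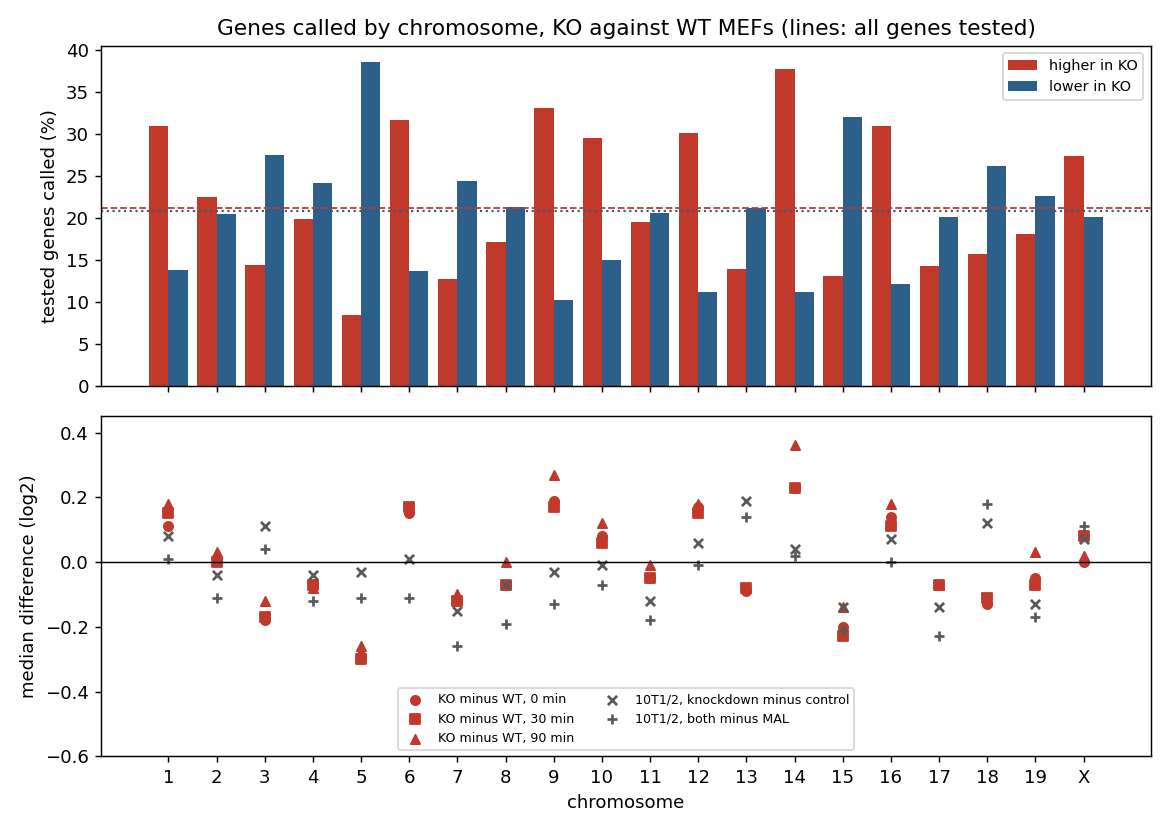
The upper panel gives, for each chromosome but Y, the percent of tested genes called higher (red) and lower (blue) in KO MEFs, with dashed and dotted lines at the values of all genes tested. The lower panel gives the median log2 difference per chromosome, red for KO minus WT at the 3 serum times and grey crosses for the knockdown pairs in 10T1/2 cells. Among the chromosomes drawn, chromosome 5 has the lowest and chromosome 14 the highest KO minus WT median at each time.

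Some neighbouring genes changed together. By the order of the RefSeq gene table, 48 runs of at least 5 tested neighbours were all called the same way, 26 higher and 22 lower. They held 280 genes, out of 5018 called and 11933 tested. How many such runs the high share of called genes would give by itself was not tested. The runs were picked by these calls and carry no test of their own. Chromosome 5 held 9 of the lower runs and 0 of the higher ones. The longest run had 14 genes on chromosome 10, from Rspo3 to Tspyl4, with coefficients from 0.44 to 3.95 and a median of 1.08. Rspo3, a secreted enhancer of Wnt signalling, read 8.0, 8.08 and 5.83 in KO MEFs, against 3.24, 3.24 and 3.58 in WT MEFs (3.95, SE 0.5, at least 10.5-fold higher). Runs of 8 genes lay on chromosome 2 (Kif5c to Neb higher, and Ttpal to Stk4 lower), chromosome 12 (Nubpl to Snx6, higher) and the X chromosome (Nrk to Prps1, higher), the last with the ranked gene Rnf128 and with Cldn2 in it.

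Some runs were gene families. Armcx genes encode mitochondrial and cytosolic proteins with armadillo repeats and lie together on the X chromosome. Armcx3 read 8.49, 8.88 and 8.99 in KO MEFs, against 3.34, 3.5 and 3.26 in WT MEFs (5.42, SE 0.15, at least 29.4-fold higher). Armcx2 read 11.54, 11.34 and 11.03 in KO MEFs, against 8.36, 7.83 and 7.47 in WT MEFs (3.42, SE 0.14, 10.7-fold higher). Armcx4 (3.75), Armcx1 (2.27) and Armcx6 (1.4) were the others of the run. On chromosome 7 the run from Trim34a to Trim30d, interferon-inducible TRIM genes, had a median of 2.18 and held Trim30d (5.99) beside Trim30a. A run of Pcdhb genes, clustered protocadherins, was higher with a median of 1.01. The families share sequence, so members may be read by each other's probes. On chromosome 6, the run of Ppp1r9a (-2.12), Pon2 (-3.62), Asb4 (-0.64), Pdk4 (-3.72) and Slc25a13 (-1.96) was lower.

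Neighbours of Cdkn2a and Cdkn2b on chromosome 4 were read as well. Mtap, the gene next to Cdkn2a, read 10.39, 10.15 and 10.43 in KO MEFs, against 10.23, 10.21 and 10.56 in WT MEFs, so the groups overlapped (-0.01, limma adjusted p = 0.96). On the other side the next 4 genes (Dmrta1, Zfp352, Elavl2 and Izumo3) were too low in both genotypes to be tested. Beyond them Tusc1 (-0.2, limma adjusted p = 0.24) and Plaa (-0.17, 0.317) did not pass, and Caap1 fell by 1.1 (0.00351). In 10T1/2 control cells Cdkn2a read 3.0 and Cdkn2b 3.92, and Mtap 10.38. Whether the genes were deleted or silent in KO MEFs was not tested.

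The 10T1/2 knockdown gave another view of lower Med23 on arrays that the MEFs do not share. It had 1 array per condition and so no test of its own. Med23 itself differed by -1.21 for knockdown minus control and -1.73 for both treatments minus MAL, against -3.97 in KO MEFs. Of the 258 genes that differed at least 8-fold between KO and WT MEFs, 64.0% had the same sign in knockdown minus control and 69.4% in both treatments minus MAL. The same shares were 55.2% and 55.9% for all called genes and 52.7% and 54.4% for all tested genes. The sign of the MEFs in both 10T1/2 pairs, with at least 2-fold in each, was seen in 284 of 11933 tested genes. It was seen in 200 of 5018 called genes, 37 of the 258 genes and 7 of the 40 ranked genes. Sfrp2 was 1 of these 7, at 1.66 and 5.03, and Abi3bp another, at 2.67 and 4.16. Gpc4, Rnf128, Sod3, Aldh3a1 and Igfbp3 were the other 5 of the 7. Peg3 (-0.06 and 0.01) and Zic1 (0.12 and -0.11) stayed low on all 4 arrays, and Ptn (0.04 and 0.24) stayed high on all 4.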

How the data were processed

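Biotin-labelled RNA of 10 cultures had been hybridised to Affymetrix arrays, and the authors deposited log2 expression values of 45101 probe sets on every array, a scale recognised from the values. Tools named per the submitters' processing notes are RMA and MAS5, with roles, versions and any joint normalization of the arrays not given in the sources used here.

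Gene names came from the platform annotation, updated through identifiers to the RefSeq table of assembly GRCm38.p6, which also gave chromosomes, gene order and promoters. Of the probe sets, 64 were controls, 34945 had 1 gene, 932 with several were not used, and 9160 had no name. They gave 18193 genes, each taken from its probe set with the highest mean over all arrays. The 11933 whose highest MEF value exceeded 3.9, the median of all probe sets, were tested with limma 3.58.1 in R 4.3.3 (genotype and serum time as terms, 2 residual and 4.18 prior degrees of freedom). Serum time, from the titles, paired the arrays. Two-sided p-values were adjusted over all tested genes (Benjamini-Hochberg). The fit was tested on simulated data. Arrays have no read depth, and precision is limited by their number.

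Named genes were the 20 largest positive and 20 largest negative coefficients past the threshold with 1 sign in all pairs outside 4 muscle and serum lists, clone and predicted names left out, the 2 largest each way among called members of each of 26 gene lists, genes of runs of neighbours, and Med23. Members and lists were chosen with earlier results of these data known, so a list's count is not independent support. Alternatives were the fit without serum time, without each time, quantile normalization, no filter, values below the array median raised to it, the mean of a gene's probe sets, and a prior with a trend on the level.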

Additional observations from a re-analysis of the deposited data

Results flagged for a closer look

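Among the ranked genes with a level above the array median in both 10T1/2 pairs, 6 had the opposite sign in both pairs of the Med23 knockdown from that in KO MEFs. Dkk3 (-0.24 and -0.29) and Sox2 (0.37 and 0.02) had the opposite sign too, at levels below the median on all 4 10T1/2 arrays. The difference between the cell types was not tested, and the 10T1/2 conditions have 1 array each. Tgfbi, a secreted matrix protein, was 6.36 higher in KO MEFs on the log2 scale, while in 10T1/2 cells the difference was -3.4 for knockdown minus control and -2.95 for both treatments minus MAL. Ctsz was 6.24 higher in KO MEFs, with -0.16 and -0.21 in the same 10T1/2 pairs. Vamp8 was 6.1 higher in KO MEFs, with -0.49 and -0.98. Alcam was 6.09 higher, with -0.01 and -0.81. Cyp1b1 had a coefficient of -7.07 in KO MEFs and differences of 0.9 and 1.36 in 10T1/2 cells. Ccn3 had -5.89 in KO MEFs and 0.2 and 0.23 in 10T1/2 cells. Of these genes, only Tgfbi moved by more than 2-fold in both 10T1/2 pairs.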

How the results depend on the processing

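Of the 5018 genes called, 2857 were called without serum time as the replicate block (1446 higher, 1411 lower). Leaving out 1 serum time gave 2307 (without 30 min) to 4893 (without 90 min), with 2571 without 0 min. Higher calls then ran from 1258 to 2370, with 1341 without 0 min, and lower calls from 1049 to 2523, with 1230 without 0 min. Each of these runs has 4 arrays, and the number of calls differed with the time left out. The reason was not tested. The other settings gave 4472 to 5183 calls. The Med23 coefficient lay between -4.04 and -3.25 and passed in every setting. No named gene changed sign, 0 of the 40 ranked genes lost the call, and 17 of 130 named genes lost it under at least 1 setting (the cause was not tested). The leans of chromosomes 5, 9 and 14 kept their direction in all settings, with 125 to 311 genes of chromosome 5 lower. Signal near the array median limits what can be said of low genes, since no detection calls were used.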

Other observations

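Several genes listed as imprinted, that is read from 1 parental allele in at least some tissues, were on in KO MEFs and low in WT MEFs. A list of 28 mouse genes read from the paternal allele and 32 read from the maternal allele was written after Peg3, Sgce and Slc38a4 had been seen, so its counts are a description and carry no test. Of 14 tested genes of the paternal allele, 7 were higher in KO MEFs, all 7 by at least 2-fold, and 2 were lower. Their median coefficient was 0.81, against -0.02 for all tested genes, of which 21.2% were higher and 20.8% lower. Of 18 tested genes of the maternal allele, 4 were higher and 4 lower, with a median of -0.06. Without the 0, 30 or 90 min arrays, 7, 6 and 7 of the paternal list were higher.

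Mest, a hydrolase-like gene of mesoderm, read 8.54, 8.28 and 8.09 in KO MEFs at the 3 times, against 3.92, 4.02 and 3.56 in WT MEFs (coefficient 4.47, SE 0.13, at least 20.3-fold higher, limma adjusted p = 7.6e-06). Sfmbt2, a Polycomb-related gene, read 8.02, 8.06 and 7.75 in KO MEFs, against 3.84, 3.93 and 3.63 in WT MEFs (4.14, SE 0.12, at least 16.2-fold higher). Plagl1, a zinc finger transcription factor, read 9.97, 9.72 and 9.75 in KO MEFs, against 3.97, 4.7 and 6.52 in WT MEFs (4.75, SE 0.48). The 3 genes did not overlap between genotypes, and Plagl1 had the widest spread among WT values. Plagl1 and Sfmbt2 each had 1 other readable probe set, of the same sign but under 2-fold. Igf2, the fetal growth factor, rose by 1.33 (SE 0.25). Among genes listed for the maternal allele, decorin (Dcn) had the largest difference of either list and was lower, at -9.14. Grb10, an adaptor that restrains insulin and IGF receptors, read 11.06, 11.03 and 10.8 in KO MEFs, against 6.02, 6.77 and 6.0 in WT MEFs (4.7, SE 0.18). Pon2 and Ppp1r9a, neighbours of Sgce on chromosome 6, were at least 10.6-fold and 3.34-fold lower, so genes of that imprinted region had opposite signs. Imprinting itself, the allele read and methylation were not measured.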
